A study of Homo sapiens with 6 samples.

Results

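The cyclin-dependent kinases CDK1, CDK2, CDK4, CDK6 and CDK7, the phosphatases CDC25A, CDC25B and CDC25C, and the inhibitory kinases WEE1 and PKMYT1 were examined in thyroid cancer cells after knockdown of GDF15. These 10 genes were picked by symbol from the 34738 genes of the deposited expression table. Cells that received an siRNA against GDF15 (siGDF15) were set against control cells (NC), in 3 RNA libraries per group. All 6 libraries are labelled as the human thyroid cancer line KHM-5M, whereas the text of the study also names the thyroid cancer line TPC-1 for the sequenced cells, and which of these was sequenced was not settled here. The methods speak of negative control cells and list a negative control siRNA, a legend speaks of vector control cells, and the deposited design of a blank control. Without an siRNA in the NC cells, knockdown and transfection cannot be told apart. Replicates are described as biological, and a siRNA lowers its target without removing it.

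Progression through the cell cycle is driven by kinases that become active when bound to a cyclin. CDK4 and CDK6 act with D-type cyclins in G1, CDK2 with cyclins E and A around the start of DNA synthesis, and CDK1 with cyclins A and B at entry into mitosis, while CDK7 is the catalytic subunit of the kinase that activates the others by phosphorylating their T-loop. WEE1 and PKMYT1 hold CDK1 and CDK2 inactive by phosphorylating a threonine and a tyrosine in the ATP-binding loop, and the CDC25 phosphatases remove these phosphates. In dividing cells most of these genes are transcribed periodically, and in arrested cells many are repressed through E2F sites and through the cell cycle genes homology region (CHR) of their promoters.

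The codons of the inhibitory site are shown because the kinases differ there in the residues that inhibitory phosphates can occupy. Each line gives 30 coding bases from GENCODE release 29 (GRCh38), read from the coding strand, with the codon pair that aligns to the inhibitory site in capitals.
CDK1: attggagaaggtACCTATggagttgtgtat
CDK2: atcggagagggcACGTACggagttgtgtac
CDK4: attggtgtcggtGCCTATgggacagtgtac
CDK6: atcggggagggcGCCTATgggaaggtgttc
CDK7: cttggggagggaCAGTTTgccaccgtttac
In CDK1 (chr10:60780193-60784724, plus strand, across the junction of exons 2 and 3) and CDK2 (chr12:55967036-55967065, plus strand, exon 1) the pair encodes threonine 14 and tyrosine 15. In CDK4 (chr12:57751655-57751684, minus strand, exon 2) it encodes alanine 16 and tyrosine 17, and in CDK6 (chr7:92833240-92833269, minus strand, exon 2) alanine 23 and tyrosine 24. In CDK7 (chr5:69235027-69235408, plus strand, across the junction of exons 1 and 2) it encodes glutamine 22 and phenylalanine 23. Among these kinases, threonine followed by tyrosine was thus present in CDK1 and CDK2 and not in CDK4, CDK6 or CDK7.

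Expected counts, which the authors worked out from transcript coverage, summed to between 67569576 and 68025163 in NC and to between 51738814 and 67793417 in siGDF15, where replicate 2 had the lowest total. The least abundant member, CDC25C, had 218 counts in that library, against a floor of 12 counts (3 read pairs at 4 counts each) that a count of 0 would allow, so every member was far above the floor in all libraries. The floor covers counting error only. GDF15 itself was at 22.4, 19.3 and 23.1 FPKM (fragments per kilobase of transcript, scaled to the mapped fragments of the library) in NC and at 10.8, 10.5 and 10.7 FPKM in siGDF15, which gave -0.92 ± 0.079 (SE) as the log2 fold change with adjusted p = 2.4e-05 from edgeR's quasi-likelihood test. Mitochondrially encoded genes held 6.39 to 6.78% of counts in NC and 8.53 to 9.17% in siGDF15, and the part of this shift in the results was not tested. Of the thyroid lineage markers reported here, PAX8 had a mean of 59.1 FPKM and FOXE1 of 2.76 FPKM in NC, whereas TG was at 0.0548 FPKM and NKX2-1 at 0.0136 FPKM, and SLC5A5 was listed at 0 in NC. PAX8 lay between 54.3 and 64.9 FPKM in NC and between 77.5 and 80.4 FPKM in siGDF15. The 5 epithelial markers, mainly KRT18, summed to between 102 and 149 FPKM in NC and between 126 and 136 FPKM in siGDF15. The 7 stromal, immune and endothelial markers, mainly CD68 and COL1A1, summed to between 23.0 and 25.6 FPKM in NC and between 21.6 and 24.4 FPKM in siGDF15, and CD3E was listed at 0 in NC.

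Knockdown of GDF15 was accompanied by lower RNA of 8 of the 10 members, higher RNA of CDK7 and no call for CDK6. The expected counts were fitted by quasi-likelihood in edgeR, with TMM scaling (trimmed mean of M values) between libraries. They entered the fit as deposited, at about 4 counts per read pair, and the effect of this on the p-values was not tested. The p-values were adjusted by Benjamini-Hochberg for the 11867 genes whose mean reached 1 FPKM, which include all 10 members. Among these tested genes 61.4% passed an adjusted p of 0.05, 31.4% as lower and 30.0% as higher, so a call by itself was common. With the log2 fold change also at -1 or less, 7 of the 10 members qualified, against 4.78% of all tested genes, and no member reached 1 or more, against 3.03%. The median log2 fold change of the members was -1.17, that of all tested genes was 0.0026. Without TMM scaling, 4679 tested genes were lower and 2701 higher in place of 3721 and 3565, and the median of all tested genes moved to -0.099. FPKM carry no TMM scaling, so folds of FPKM lie lower than the edgeR values by about this shift. As the cells were measured in bulk, fewer cells in a cycle phase and less RNA per cell cannot be told apart.

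**Figure D1:**
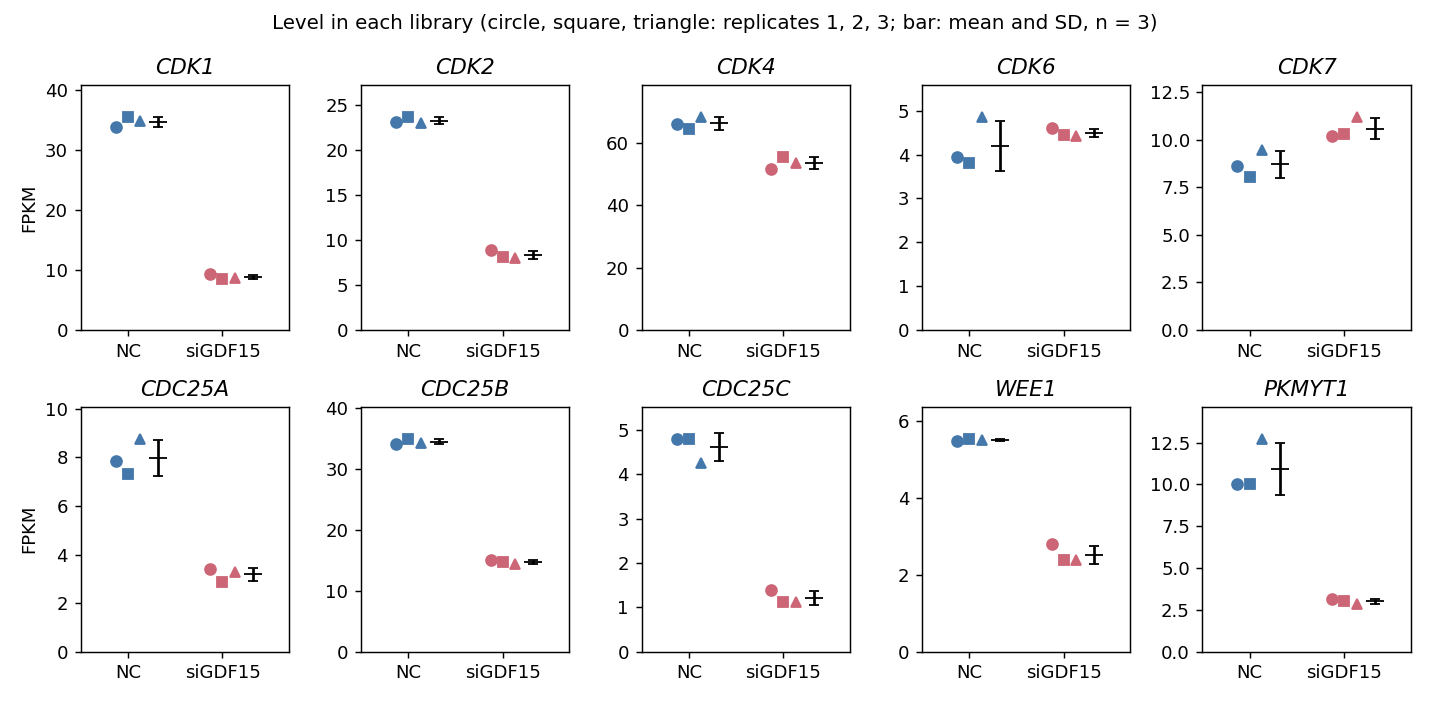
FPKM of each member (vertical axes, each from 0) in the NC and siGDF15 libraries, with 1 symbol per replicate and the mean and SD beside them (n = 3). The groups lie apart in every panel except that of CDK6, where NC replicate 3 lies above the siGDF15 libraries.

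CDK1 (ENSG00000170312, chr10:60778331-60794828, plus strand), the mitotic kinase, was at 33.8, 35.5 and 34.8 FPKM in NC replicates 1 to 3 and at 9.24, 8.54 and 8.64 FPKM in siGDF15 replicates 1 to 3. The position is that of the deposited table on GRCh38, as for the genes that follow. The highest siGDF15 library of CDK1 lay far below its lowest NC library. The mean fell from 34.7 ± 0.853 to 8.81 ± 0.379 FPKM (SD, n = 3), with a log2 fold change of -1.87 (95% interval -1.98 to -1.76, adjusted p = 2.8e-07 from edgeR). By p-value CDK1 ranked 5 among the 11867 tested genes. CDK2 (ENSG00000123374, chr12:55966781-55972385, plus strand), the S-phase kinase, was at 23.0, 23.6 and 22.9 FPKM in NC and at 8.82, 8.05 and 7.99 FPKM in siGDF15. These groups did not overlap either, and the 2.80-fold fall in mean FPKM was larger than the spread between replicates (log2 fold change -1.38, 95% interval -1.50 to -1.25, adjusted p = 6.3e-07 from edgeR).

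The G1 kinases and the CDK-activating kinase moved little. CDK4 (ENSG00000135446, chr12:57747727-57756013, minus strand), which binds D-type cyclins, was at 66.0, 64.2 and 68.3 FPKM in NC and at 51.7, 55.4 and 53.4 FPKM in siGDF15. Every siGDF15 library lay below every NC library, and the log2 fold change was -0.20 (95% interval -0.32 to -0.08, adjusted p = 0.0087 from edgeR). When libraries were brought to the same median count this call was lost (log2 fold change -0.15, adjusted p = 0.0505), so the direction of CDK4 was stable over the scalings and its call was not. The locus of CDK4 overlaps TSPAN31 on the opposite strand by 2485 bases, and TSPAN31 had a log2 fold change of 1.03. CDK6 (ENSG00000105810, chr7:92604921-92833917, minus strand) was at 3.94, 3.81 and 4.86 FPKM in NC and at 4.61, 4.46 and 4.42 FPKM in siGDF15. The groups overlapped through NC replicate 3, and CDK6 did not pass the test (log2 fold change 0.20, 95% interval -0.01 to 0.41, adjusted p = 0.095 from edgeR). Without NC replicate 3 it was called higher, with a log2 fold change of 0.32 and adjusted p = 0.0012 from edgeR, and in every other setting it was not called. CDK7 (ENSG00000134058, chr5:69234795-69277429, plus strand) was at 8.63, 8.05 and 9.45 FPKM in NC and at 10.2, 10.3 and 11.2 FPKM in siGDF15. It was the only member called higher, with groups that did not overlap (log2 fold change 0.38, 95% interval 0.20 to 0.57, adjusted p = 0.0030 from edgeR).

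**Figure D2:**
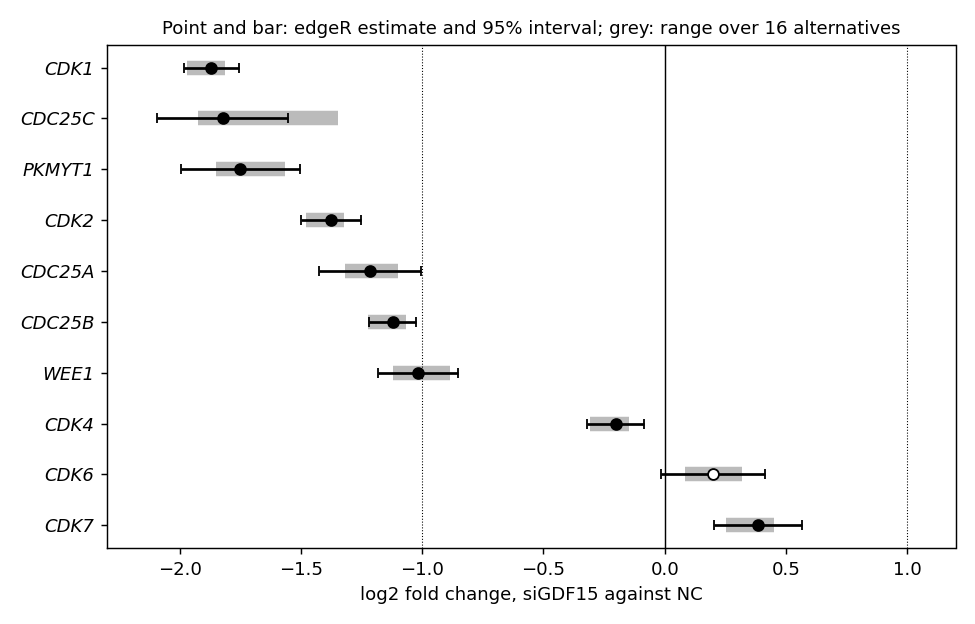
Log2 fold change of each member (horizontal axis) with its 95% interval, filled where the adjusted p is under 0.05, over a grey bar that spans 16 alternative settings. CDK1, CDC25C, PKMYT1, CDK2, CDC25A, CDC25B and WEE1 lie at -1.02 or below, and CDK4, CDK6 and CDK7 lie between -0.20 and 0.38.

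The 3 CDC25 phosphatases, which activate the kinases, all fell. CDC25A (ENSG00000164045, chr3:48157146-48188417, minus strand), which acts at the entry into S phase and beyond, was at 7.84, 7.34 and 8.77 FPKM in NC and at 3.41, 2.88 and 3.27 FPKM in siGDF15 (log2 fold change -1.22, 95% interval -1.42 to -1.01, adjusted p = 1.1e-05 from edgeR). CDC25B (ENSG00000101224, chr20:3786772-3806121, plus strand), which starts the activation of CDK1 before mitosis, was at 34.1, 34.95 and 34.3 FPKM in NC and at 15.0, 14.7 and 14.4 FPKM in siGDF15. It had the smallest standard error of the family and a log2 fold change of -1.12 (95% interval -1.22 to -1.02, adjusted p = 5.8e-07 from edgeR). CDC25C (ENSG00000158402, chr5:138285269-138338355, minus strand), the mitotic phosphatase, was at 4.801, 4.798 and 4.26 FPKM in NC and at 1.38, 1.13 and 1.11 FPKM in siGDF15. Its log2 fold change was -1.82 (95% interval -2.09 to -1.55, adjusted p = 5.1e-06 from edgeR), and its interval lay wholly below those of CDC25A and CDC25B and held the value of CDK1. CDC25C overlaps FAM53C on the opposite strand by 6421 bases, and FAM53C had a log2 fold change of 0.31.

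Both inhibitory kinases, which oppose CDC25, fell as well. WEE1 (ENSG00000166483, chr11:9573670-9593457, plus strand), the nuclear tyrosine kinase, was at 5.48, 5.55 and 5.51 FPKM in NC and at 2.80, 2.38 and 2.40 FPKM in siGDF15. The NC libraries were nearly equal, and the log2 fold change was -1.02 (95% interval -1.18 to -0.85, adjusted p = 8.2e-06 from edgeR). It was past -1 in 11 of 16 alternatives, and the others lay between -0.99 and -0.89, so WEE1 stood at the edge of this threshold. PKMYT1 (ENSG00000127564, chr16:2968024-2980479, minus strand), the membrane-bound kinase of the threonine and the tyrosine, was at 10.04, 10.001 and 12.7 FPKM in NC and at 3.16, 3.01 and 2.84 FPKM in siGDF15. NC replicate 3 was the highest, and the groups lay apart (log2 fold change -1.75, 95% interval -1.997 to -1.504, adjusted p = 3.9e-06 from edgeR). The fitted falls of PKMYT1 and WEE1 had intervals that did not overlap. PKMYT1 shares 4213 bases with PAQR4 on the opposite strand, which fell from a mean of 10.9 to 4.299 FPKM (log2 fold change -1.24). The library protocol marks strand, but whether the authors counted by strand is not given in the sources used here, so reads of PKMYT1 and PAQR4, and of the other overlapping pairs, may not be separated.

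For 9 of the 10 members the FPKM groups did not overlap, against 68.4% of all tested genes. For each of these the exact permutation test gave a two-sided p = 0.1, the smallest that 3 libraries against 3 allow. All 10 members are annotated to the KEGG cell cycle pathway in the deposited table, 4 of them (CDK1, CDK2, CDK4 and CDK6) also to the p53 signaling pathway and 5 (these and CDC25A) to cellular senescence.

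A comparison of FPKM between genes rests on the transcript lengths behind them. In NC replicate 1, CDK1 and CDC25B were close in counts (9931 and 10022) and in FPKM. Their GENCODE transcripts, however, have 1913 and 3597 bases. The order of the members, and the shares and ratio levels below, could thus differ with other lengths. By the deposited FPKM this order differed between the groups. In NC it ran from CDK4 (66.2 FPKM) through CDK1 (34.7), CDC25B (34.5), CDK2 (23.2), PKMYT1 (10.9), CDK7 (8.71), CDC25A (7.98), WEE1 (5.51) and CDC25C (4.62) to CDK6 (4.21). The neighbours CDK1 and CDC25B, CDK7 and CDC25A, and CDC25C and CDK6 overlapped in their ranges. In siGDF15 CDK4 (53.5 FPKM) was followed by CDC25B (14.7), CDK7 (10.6), CDK1 (8.81), CDK2 (8.29), CDK6 (4.50), CDC25A (3.19), PKMYT1 (3.00), WEE1 (2.53) and CDC25C (1.21), and CDK1 and CDK2, as well as CDC25A and PKMYT1, overlapped. By FPKM, CDK7 was below CDK1 in every NC library and above it in every siGDF15 library. In counts, which are not scaled by length, CDK7 stayed below CDK1 in siGDF15 too. There it had 1855, 1441 and 2031 counts, against 2712, 1929 and 2532 for CDK1. CDK6, the member with the lowest mean FPKM in NC, lay above CDC25A, PKMYT1, WEE1 and CDC25C by FPKM in siGDF15.

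The summed FPKM of the 5 kinases fell from 137 ± 2.86 to 85.6 ± 1.08 (SD, n = 3), and its composition shifted towards CDK4. CDK1 made up 24.9, 26.2 and 24.8% of this sum in NC and 10.9, 9.85 and 10.1% in siGDF15. CDK2 went from 16.9 ± 0.572 to 9.68 ± 0.651% (SD, n = 3). CDK4 made up 48.8, 47.5 and 48.7% in NC and 61.1, 63.8 and 62.3% in siGDF15, although its own level was lower. The share of CDK7 went from 6.36 ± 0.392 to 12.3 ± 0.647% and that of CDK6 from 3.07 ± 0.350 to 5.25 ± 0.173% (SD, n = 3). In none of these shares did the groups overlap, although they overlapped in the level of CDK6 itself. A share can rise because the sum falls. The summed FPKM of the CDC25 genes fell from 47.1 ± 0.280 to 19.1 ± 0.593 (SD, n = 3), a larger proportional fall, with less change in composition. CDC25B remained the main RNA, at 73.2 ± 0.907% in NC and 77.0 ± 1.48% in siGDF15, CDC25C went from 9.82 ± 0.713 to 6.31 ± 0.594%, and the share of CDC25A overlapped between the groups (17.0 ± 1.49 and 16.7 ± 1.16%, SD, n = 3).

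**Figure D3:**
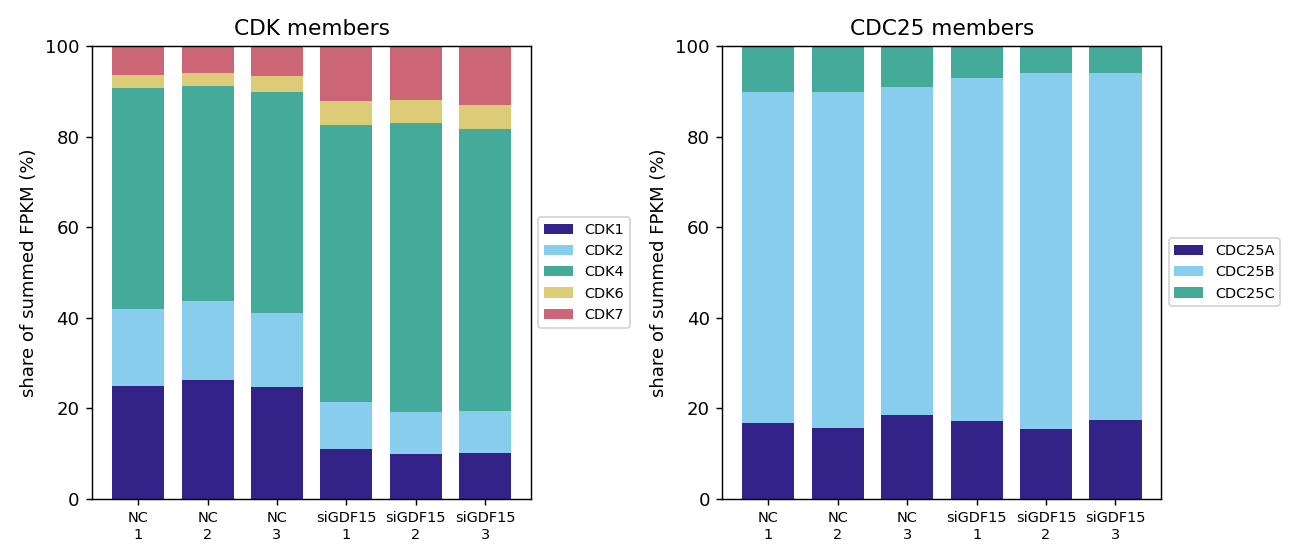
Share of each gene (vertical axis, percent) in the summed FPKM of the 5 CDK members (left) and of the 3 CDC25 genes (right), with 1 bar per library. CDK4 rises from 48.3 to 62.4% on average while CDK1 goes from 25.3 to 10.3%, and CDC25B stays the largest CDC25 share.

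Ratios within a library, which no scaling between libraries can move, were compared for 6 pairs. The ratio of CDK1 to its inhibitor WEE1 was 6.16, 6.39 and 6.31 in NC and 3.30, 3.58 and 3.61 in siGDF15. CDK1 thus fell further than WEE1, and the groups lay apart (exact permutation test, two-sided p = 0.1, adjusted p = 0.2 over the 6 ratios). The ratio of CDK1 to CDK2 went from 1.49 ± 0.0259 to 1.06 ± 0.0170 (SD, n = 3) and that of CDK4 to CDK6 from 15.9 ± 1.59 to 11.9 ± 0.622 (SD, n = 3), also without overlap and with the same p. The ratio of CDK1 to PKMYT1 was 3.36, 3.55 and 2.73 in NC and 2.93, 2.84 and 3.04 in siGDF15, so the groups overlapped (exact permutation test, p = 0.4). Overlap was also seen for CDC25A to CDC25B (0.232 ± 0.0230 and 0.217 ± 0.0188) and for CDC25C to PKMYT1 (0.431 ± 0.0835 and 0.402 ± 0.0328, SD, n = 3).

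Promoter windows from RefSeq (GRCh38.p14, 250 bases before to 50 after a gene start) were at hand for 7 of the members, in 16 windows. CDK2, WEE1 and PKMYT1 had no entry. The 100 bases before a start are shown for CDK1 and the CDC25 genes, which fell together, and for CDK4, which changed little. Capitals mark the CHR (TTTGAA or TTCGAA), the E2F core (TTCGCGC or, in its place, TTGGCGC, and likewise TTCCCGC and finally TTGCCGC) and the CCAAT box (CCAAT), on either strand.
CDK1: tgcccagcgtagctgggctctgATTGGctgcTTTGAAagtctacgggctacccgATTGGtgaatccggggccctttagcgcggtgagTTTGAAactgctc
CDC25C: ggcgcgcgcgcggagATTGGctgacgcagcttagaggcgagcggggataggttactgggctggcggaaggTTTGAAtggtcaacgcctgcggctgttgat
CDC25B: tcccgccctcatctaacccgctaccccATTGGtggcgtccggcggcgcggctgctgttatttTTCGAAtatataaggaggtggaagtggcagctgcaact
CDC25A: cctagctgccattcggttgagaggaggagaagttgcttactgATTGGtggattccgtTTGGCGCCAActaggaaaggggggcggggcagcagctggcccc
CDK4: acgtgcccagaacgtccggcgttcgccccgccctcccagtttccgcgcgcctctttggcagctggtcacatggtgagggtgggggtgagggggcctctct
These lie at chr10:60778378-60778477 (plus strand), chr5:138331805-138331904 (minus), chr20:3796210-3796309 (plus), chr3:48188418-48188517 (minus) and chr12:57752311-57752410 (minus), in the order printed. For genes with several windows, the one with the CHR match nearest before its start is shown. This choice favours a CHR match in the printed bases. Window 1 of CDC25C (chr5:138338306-138338605) and of CDC25B (chr20:3786701-3787000) covers the start of the deposited gene, and neither held a CHR match. In CDK1 a CHR match began 13 bases before the start of window 2 of 2, in CDC25C 30 bases before that of window 4 of 4 and in CDC25B 38 bases before that of window 3 of 4, each with ATTGG, the reverse complement of the CCAAT box, further upstream. In CDC25A no CHR match was found, and an E2F match on both strands, overlapping itself, began 43 bases before the start. E2F matches were not particular to CDC25A and also lay outside the printed bases. In window 1 they began 28 bases before the start in CDK1, 91 in CDC25B and 170 in CDC25C. The windows of CDK4, CDK6 and CDK7 held none of the 3 motifs. Over all 35116 windows 16.4% held a CHR match, 12.97% an E2F match and 34.6% a CCAAT match, and over the 16 windows of the members the numbers were 5, 6 and 7. Windows of the same gene can overlap and share a site, so the 16 are not independent. Counted by gene, 3, 4 and 4 of the 7 members had a match in at least 1 window. No share by gene was worked out over all genes, so these counts have no background. CDK1, CDC25C and CDC25B, which had CHR matches, had 2, 4 and 4 windows. CDK4, CDK6 and CDK7 had 1, 2 and 2, and more windows give more room for a match. A match describes letters only and is not evidence of binding.

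Around the members, 8 lists of genes of the same circuit were counted, with the background of 31.4% lower and 30.0% higher among all tested genes. Of the cyclins and the partners of CDK7, 10 of 12 were tested, 6 were lower and 1 was higher. The mitotic cyclins CCNB1 and CCNB2 had log2 fold changes of -1.46 and -1.34, CCNA2 of -1.91 and CCNE2 of -1.62. The D-type cyclins CCND1 (-0.96, from a mean of 94.0 to 44.8 FPKM) and CCND3 (-0.20), named after their values were seen, were lower too. CCNH, the cyclin partner of CDK7, was the higher gene, with a log2 fold change of 0.40 (adjusted p = 0.010 from edgeR) although its FPKM overlapped between the groups, and was named after its value was seen. Of the CDK inhibitors, CKS proteins and the CDK phosphatase, 5 of 10 were lower and 4 higher. The lower ones were CKS1B (-1.52), CDKN3 (-1.16) and CKS2 (-0.69) and, named after their values were seen, CDKN2C (-0.77) and CDKN2D (-0.71). CDKN2B, an inhibitor of CDK4 and CDK6, rose from 2.11 ± 0.166 to 9.09 ± 0.391 FPKM (SD, n = 3, log2 fold change 2.21, adjusted p = 4.6e-07 from edgeR). CDKN1B (0.43), CDKN2A (0.40) and CDKN1A (0.27), likewise named after their values were seen, were the others, and the call of CDKN1A was lost in 4 of 16 alternatives, among them total count scaling without TMM (adjusted p = 0.077).

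Upstream of CDC25 and WEE1, 13 of 19 kinases, adaptors and 14-3-3 proteins were lower and 2 higher. AURKA (-1.60) and PLK1 (-1.50), which promote the activation of CDC25 before mitosis, fell, as did CLSPN (-1.90), the adaptor of the checkpoint kinase CHEK1, and YWHAZ (-0.74), a 14-3-3 protein. The higher genes, named after their values were seen, were MAPKAPK2 (0.22) and MARK3 (0.15), and the call of MARK3 held in 5 of 16 alternatives. The greatwall arm restrains a phosphatase that removes phosphates placed by CDK1 on its substrates. Of the genes of this arm and of the phosphatase subunits, 4 of 8 were lower and 1 higher. MASTL, the greatwall kinase, fell from 8.76 ± 0.336 to 3.39 ± 0.202 FPKM (SD, n = 3, log2 fold change -1.26), whereas ARPP19 (-0.33), PPP2R2A (-0.39) and PPP2CA (-0.25, named after its value was seen) fell less and PPP2R2D (0.36) rose. Among ubiquitin ligase subunits that act on WEE1 and CDC25, 4 of 8 were lower, namely CDCA3 (-1.81), CDC20 (-1.41), FZR1 (-0.33) and CUL1 (-0.28). The 2 higher ones, BTRC (0.22) and FBXW7 (0.24), were named after their values were seen, and their calls held in 12 and 7 of 16 alternatives.

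CDKs outside the members, most of which act in transcription or outside the cycle, were a mixed group. Of 16, 13 were tested, with 6 lower and 3 higher, and the median log2 fold change was -0.11 against -0.20 for the 5 CDK members. No gene of this list was lower by 1 or more, against 2 of the 5 members. CDK9, the elongation kinase, rose from 28.1 ± 0.958 to 37.0 ± 0.712 FPKM (SD, n = 3, log2 fold change 0.50), CDK18 from 1.51 ± 0.514 to 3.10 ± 0.171 FPKM (SD, n = 3, log2 fold change 1.14) and CDK8, named after its value was seen, by a log2 fold change of 0.26 that lost its call in 5 of 16 alternatives. CDK11A (-0.39) and CDK11B (-0.35) fell, and as near-identical copies they may share reads. The pocket proteins, substrates of the CDKs, were lower for all 3 tested, with RBL1 at -1.58, RB1 at -0.39 and RBL2 at -0.30. All 6 proliferation markers were lower, with a median of -1.66, and their summed FPKM went from between 417 and 428 in NC to between 131 and 151 in siGDF15. RRM2 (-1.89), TOP2A (-1.89), MKI67 (-1.74) and MCM2 (-1.21) were among them. The part of these markers in the falls of the members was not tested.

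**Figure D4:**
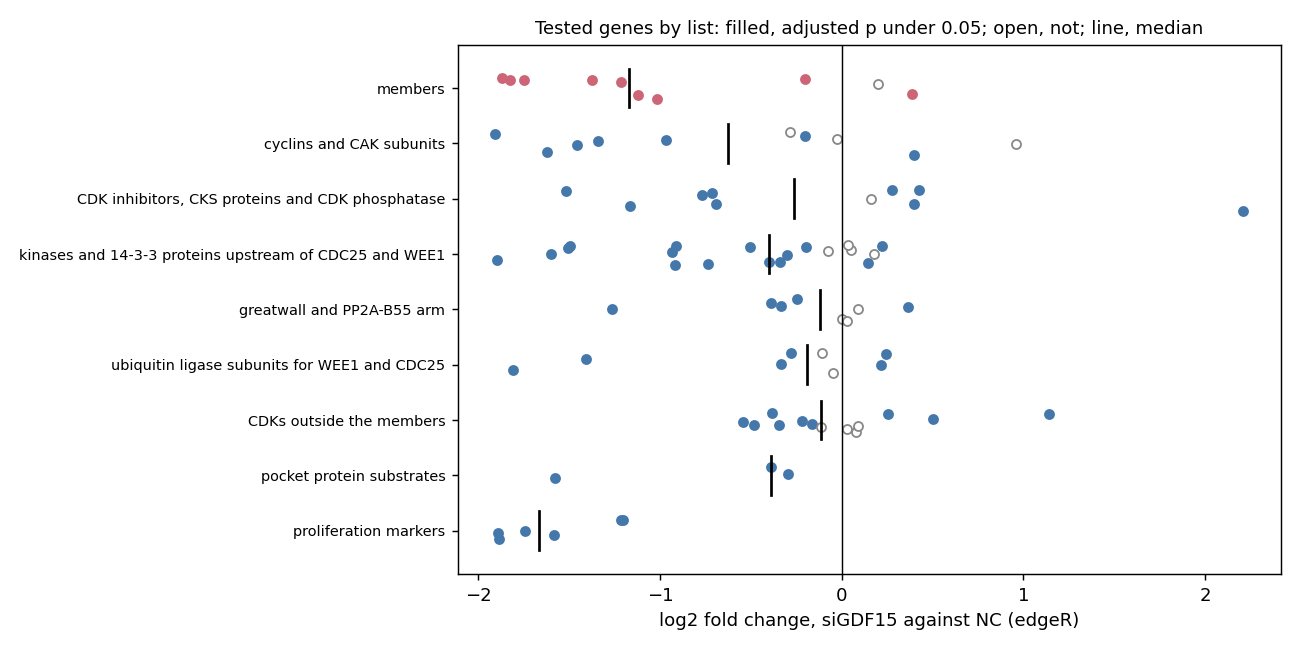
Log2 fold change (horizontal axis) of the tested genes in each list, filled where the adjusted p is under 0.05 and open where it is not, with a line at the median. The members lie mostly below -1, with CDK4, CDK6 and CDK7 near 0, and the CDKs outside the members stay between -0.54 and 1.14.

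Of all tested genes, those whose centred log2(FPKM + 1) values over the 6 libraries lay closest to CDK1 were KIFC1, TCF19 and DEPDC1, with root mean square differences of 0.022, 0.025 and 0.044 and log2 fold changes of -1.82, -1.94 and -2.03. Those closest to CDK7 were DDX19A (0.011), TYW1 (0.016) and MICOS13 (0.022), with log2 fold changes of 0.39, 0.38 and 0.40. With 2 groups, this likeness rests mainly on the difference between the groups.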

How the data were processed

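Poly(A) RNA of 3 NC and 3 siGDF15 libraries was sequenced as read pairs of 150 bases. Per the labels, the authors used fastp, HISAT2, StringTie and edgeR on GRCh38, with versions, annotation release and strand setting not given in the sources used here. The deposited FPKM are scaled by transcript length and mapped fragments by the authors. The deposited expected counts are whole numbers derived from coverage, unnormalized, and 4 was the most frequent value from 1 to 20. Gene positions are those of the table. GENCODE release 29 lists the same identifiers, with identical positions for 2 members.

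Counts were fitted with edgeR 4.0.16 (TMM, quasi-likelihood, two-sided; mean FPKM from 1 upwards) in R 4.3.3, and checked on simulated data. Standard errors came from the F statistic. Alternatives used limma 3.58.1, on log2(FPKM + 1) or log2(FPKM + 0.1), and DESeq2 1.42.0. The members and lists were chosen with earlier results of these data known. Named genes were the members, GDF15, up to 4 genes per list with the smallest adjusted p, and the 3 nearest to the member with the largest fall and to that with the largest rise. Columns of all 6 libraries were used.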

Additional observations from a re-analysis of the deposited data

How the results depend on the processing

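Over 16 alternatives (4 scalings, 2 filters, DESeq2, limma with 2 pseudocounts, a replicate block and each of the 6 libraries left out) CDK1, CDK2, CDC25A, CDC25B, CDC25C, WEE1, PKMYT1 and CDK7 kept their call and direction. CDK4 lost its call with the same median count (7 members lower), and CDK6 gained one without NC replicate 3. With libraries left out in turn, the number of members called lower stayed at 8 and that of members called higher lay between 1 and 2. Across all tested genes, leaving out a library gave 3173 to 3755 lower and 3010 to 3664 higher genes, and across the lists 44 to 47 lower and 11 to 14 higher. Requiring a 1-unit log2 change as well left 567 lower and 360 higher genes of all, 20 lower and 2 higher genes of the lists, and 0 members higher. The 13 higher genes of the lists became 8 with the total count without TMM, with no filter and with limma at either pseudocount. With a pseudocount of 1 the number of ratios without overlap went from 3 to 5. The replicate block changed no call of a member (8 lower, 1 higher) and gave 3515 lower and 3391 higher genes of all. Libraries of the same number did not deviate together, with correlations of 0.046, -0.13 and 0.029, so the numbers were not taken as pairs. The replicates measure the spread between these cultures of 1 cell line.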
